A study of Homo sapiens with 6 samples.

Results

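The genes described here are 7 inhibitors of cyclin-dependent kinases (CDKs), CDKN1A, CDKN1B, CDKN1C, CDKN2B, CDKN2C, CDKN2D and CDKN3, taken by symbol from a table of 31142 genes. They were measured by RNA sequencing in cells labelled SKM-1, a human acute myeloid leukemia line that arose from a myelodysplastic syndrome (MDS). The splicing factor U2AF1 was expressed from a lentivirus, as S34F mutant in 3 libraries and as wild type (WT) in 3 libraries, and RNA was taken after 96 h. Both forms carried a FLAG tag and were driven by a ubiquitin promoter in a vector with GFP and puromycin resistance, and the cells kept their own wild-type U2AF1. The libraries called WT here have titles that give wild-type U2AF1 with a prefix the study also uses for negative controls, and its methods speak of a vehicle control. The study describes the RNA samples as independent and as pairs of mutant and WT, treated in triplicate. Neither it nor the labels say whether they came from separate cultures, so p-values measure the spread between these libraries, which may be technical. The study asked whether inhibitors of the cell cycle rose in S34F cells together with the transcription factor FOXO3a.

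CDKs, bound to cyclins, drive the cell from one phase of its division cycle to the next, and CDK inhibitors hold them back. The Cip/Kip proteins p21Cip1 (CDKN1A), p27Kip1 (CDKN1B) and p57Kip2 (CDKN1C) bind cyclin and kinase together and act on CDK2 complexes above all. The INK4 proteins p15 (CDKN2B), p18 (CDKN2C) and p19 (CDKN2D) bind CDK4 and CDK6 and keep D-type cyclins from them. CDKN3 is not a binding inhibitor of either kind but a phosphatase that removes an activating phosphate from CDK2, and its RNA is known to peak late in the cycle. CDKN1B is a classical target of FOXO factors, and blood cells are known to raise several of these genes as they leave the cycle and mature.

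Promoter windows from RefSeq (GRCh38.p14, 250 bases before to 50 bases after a start) were matched for 6 of the 7 genes, all but CDKN1C. The windows of CDKN1A and CDKN1B are printed because the study compared these genes with FOXO3a, and that of CDKN3 because it differs from both. All 3 genes lie on the plus strand. Capitals mark 4 short motifs, searched on either strand. GGGCGG is the box bound by Sp factors, called the GC box below. CCAAT is the box bound by the factor NF-Y in many promoters of dividing cells. TAAACA is the core shared by forkhead factors. TTTGAA is the CHR, an element known from promoters of late cell cycle genes.
CDKN1A, chr6:36678464-36678763: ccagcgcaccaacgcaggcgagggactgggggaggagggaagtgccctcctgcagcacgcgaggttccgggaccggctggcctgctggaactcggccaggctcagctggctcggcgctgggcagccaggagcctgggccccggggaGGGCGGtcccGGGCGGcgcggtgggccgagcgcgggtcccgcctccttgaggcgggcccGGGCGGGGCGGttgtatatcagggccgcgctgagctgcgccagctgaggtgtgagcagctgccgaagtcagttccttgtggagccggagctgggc
CDKN1B, chr12:12717118-12717417: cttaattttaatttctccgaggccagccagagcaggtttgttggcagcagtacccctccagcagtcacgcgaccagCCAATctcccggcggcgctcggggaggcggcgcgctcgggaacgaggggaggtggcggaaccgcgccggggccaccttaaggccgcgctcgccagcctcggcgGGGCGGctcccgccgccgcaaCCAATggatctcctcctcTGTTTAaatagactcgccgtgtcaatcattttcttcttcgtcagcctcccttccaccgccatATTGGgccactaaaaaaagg
CDKN3, chr14:54396757-54397056: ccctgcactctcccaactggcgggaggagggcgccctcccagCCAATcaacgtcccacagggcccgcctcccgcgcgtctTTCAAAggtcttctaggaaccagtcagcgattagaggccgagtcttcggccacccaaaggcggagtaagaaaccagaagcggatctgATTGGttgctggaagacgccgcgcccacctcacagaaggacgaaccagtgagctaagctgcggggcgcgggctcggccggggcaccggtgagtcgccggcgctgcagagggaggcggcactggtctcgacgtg
The CDKN1A window was 74.3% G and C and held 4 GC boxes, 2 of which overlap, and none of the other motifs marked. The CDKN1B window held 3 CCAAT boxes, a single GC box and 1 forkhead core, at position -32 from the start. The CDKN3 window held 2 CCAAT boxes and 1 CHR, at position -170, and no GC box. Over all 35116 promoter windows of this length, 45% held a GC box, 34.6% a CCAAT box, 15.2% a CHR and 12.3% a forkhead core. The longer FOXO motif GTAAACA, which contains the forkhead core and is held by 3.42% of all windows, was found in 0 of the 8 windows of the 6 genes. These matches describe the printed letters and say nothing of binding.

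Levels are in FPKM, a fragment count divided by transcript length and library depth, and rested on roughly 20.8 to 26.1 M fragments per library. U2AF1 itself had 9.24, 9.48 and 9.18 FPKM in S34F and 8.67, 8.70 and 7.65 FPKM in WT, so that every S34F library lay above every WT library, as groups did not overlap in 7.38% of all genes tested. Two-sided exact permutation gave p = 0.1, the smallest it can give here, and limma a log2 fold change of 0.14 (unadjusted p = 0.194). These values do not tell the mutant from the wild-type allele or the vector from the cells' own gene. The libraries numbered 3 stood apart. On the first principal component of the 10942 genes averaging 1 FPKM or more, which took up 47.9% of the variance, S34F replicate 3 lay at 35.1, WT replicate 3 at 12.9 and the rest between -16.3 and -7.71. Of 12 listed monocytic and myeloid genes, 8 averaged under 1 FPKM, among them FCN1 and CSF1R at no more than 0.0468 FPKM in any library. CD68 had 32.9 to 64.6 FPKM, LYZ 8.52 to 23.2 FPKM, and ITGAM and CD33 averaged 2.42 and 2.44 FPKM. The 12 summed to 45.8 to 75.6 FPKM in S34F and 67.3 to 88.7 FPKM in WT. Of the 4 tested, 0 were called by the rule given below, which called 0.585% of all genes tested. All 4 had lower means in S34F (median log2 fold change -0.42). Unadjusted p from limma was 0.0148 for ITGAM and 0.0469 for CD33 (adjusted p = 1.00 for both). The groups did not overlap for these 2, while LYZ was at its highest in S34F replicate 3. The part of these genes in the values of the inhibitors was not tested. The 12 erythroid genes listed, among them the globins and GATA1, summed to 12133 to 13894 FPKM in S34F and 11741 to 12827 FPKM in WT. Erythroid transcripts were thus far more abundant than those of the monocytic list, and the cells are called here by their label only.

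Of the 7 genes, 6 were expressed in every library and CDKN2B was not detected above 1 fragment. FPKM is a level per length, so the genes can be set side by side. CDKN2C had the highest level, 21.8 ± 2.27 FPKM (SD, n = 6), followed by CDKN1A with 15.2 ± 6.69, CDKN1B with 11.3 ± 1.71, CDKN3 with 5.78 ± 0.577, CDKN1C with 4.46 ± 0.537 and CDKN2D with 3.42 ± 0.483 FPKM. The range of CDKN2C overlapped that of CDKN1A, that of CDKN1A overlapped that of CDKN1B, and the ranges of CDKN3, CDKN1C and CDKN2D also overlapped from one to the next. Within libraries, CDKN3 lay above CDKN1C and CDKN1C above CDKN2D in 6 of 6, and CDKN2C above CDKN1A and CDKN1A above CDKN1B in 5 of 6. CDKN1B, at 10.2 FPKM or more, lay above CDKN3, at 6.54 FPKM or less, in 6 of 6 libraries. Without both replicates 3 no neighbours in this order overlapped, and the order was the same. CDKN1A was therefore the gene whose place in the order was least fixed, with a highest library 3.37 times its lowest, against 1.31 to 1.51 times for the other 5 expressed genes.

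**Figure D1:**
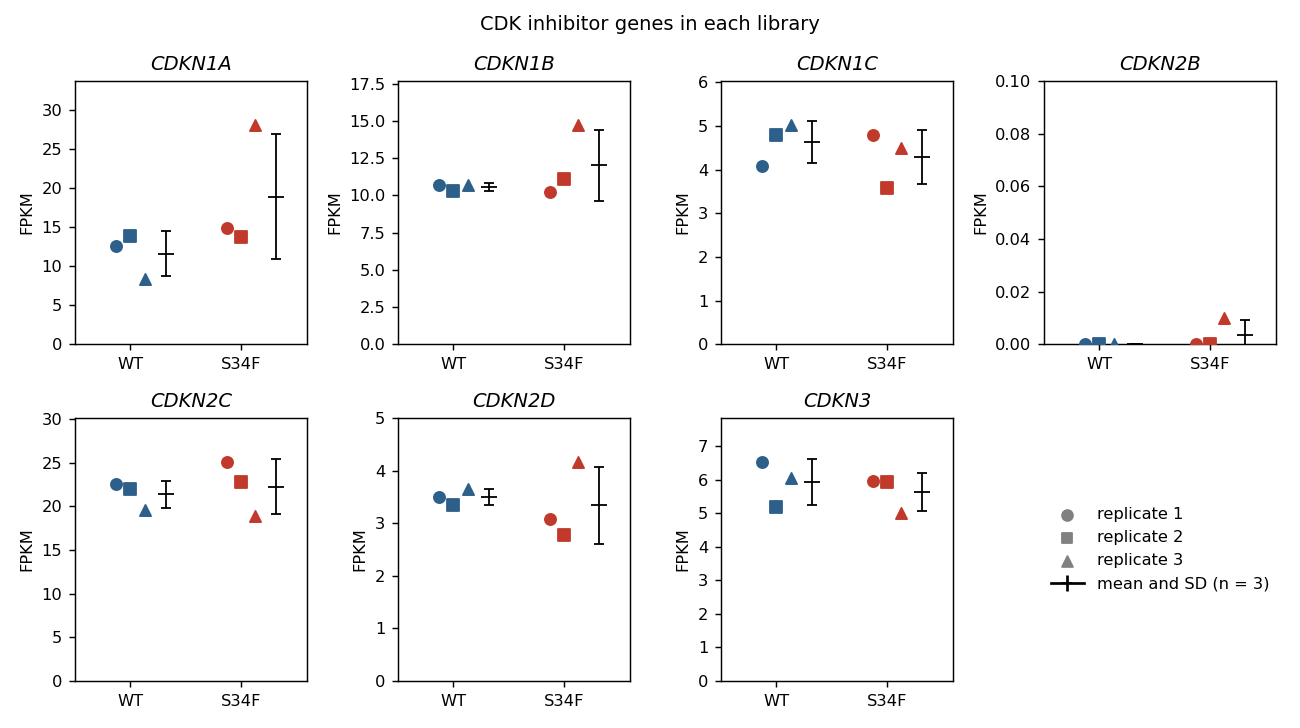
FPKM of the 7 CDK inhibitor genes in each WT and S34F library (one panel per gene, each FPKM axis from 0), with the mean and SD of 3 libraries beside the points. CDKN1A reached 28.1 FPKM in S34F replicate 3 against 8.32 to 14.9 FPKM elsewhere, and CDKN2B stayed at or near 0.

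S34F was compared with WT by limma on log2(FPKM + 1) over the 10942 genes, and a gene was called changed at a fold change above 1.5 with an unadjusted p under 0.05, the limits of the study. Of the 6 CDK inhibitor genes tested, 0 were called higher, 0 were called lower, 0 had an unadjusted p under 0.05 and 0 had an adjusted p under 0.05 (Benjamini-Hochberg over all genes). Over all genes, 0.21% were called higher, 0.375% lower and 0.585% in either direction, 2.39% had an unadjusted p under 0.05 and 0 passed adjustment. The 6 genes split evenly, 3 higher and 3 lower in S34F, and their median difference on the log2 scale was -0.0054, where all genes tested had 0.015. In 0 of the 6 did the libraries of the groups fail to overlap, which they did in 7.38% of all genes. As these are bulk samples, more cells that express a gene and more RNA per cell cannot be told apart.

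CDKN1A (ENSG00000124762, chromosome 6 of GRCh38 from 36676460 to 36687339, plus strand) encodes p21Cip1, which stops CDK2 and binds PCNA. It had 14.9, 13.6 and 28.1 FPKM in S34F replicates 1, 2 and 3 and 12.6, 13.8 and 8.32 FPKM in WT replicates 1, 2 and 3. The groups overlapped, since S34F replicate 2 lay below WT replicate 2, and the highest and the lowest library were replicate 3 of each group. The log2 fold change was 0.62 (standard error 0.30, 95% interval -0.09 to 1.33, unadjusted p = 0.0780 and adjusted p = 1.00 from limma), a fold of 1.54 that exceeded 1.5 without passing the limit on p. In size it exceeded 98.7% of the genes tested. At the same limits, the study's own analysis of its sequencing reported CDKN1A as upregulated in S34F cells. It also reported a rise of the RNA by quantitative PCR and of the protein by western blotting. Two-sided exact permutation over 3 against 3 libraries, which cannot give less than 0.1, gave p = 0.2. Matched by replicate number, the ratio of S34F to WT was 1.19, 0.988 and 3.37, so that 2 of 3 pairs were higher in S34F. Without replicate 3 in both groups, the means were 14.3 and 13.2 FPKM and limma gave a log2 fold change of 0.11 (unadjusted p = 0.239). Without S34F replicate 2 it was 0.80 and CDKN1A was called (limma, unadjusted p = 0.0435, adjusted p = 1.00).

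CDKN1B (ENSG00000111276, chromosome 12 from 12715058 to 12722371, plus strand) encodes p27Kip1, the inhibitor that keeps CDK2 silent in resting cells. It had 10.2, 11.1 and 14.7 FPKM in the S34F replicates and 10.7, 10.3 and 10.7 FPKM in the WT replicates. The WT libraries lay within a narrow band, and S34F replicates 1 and 2 lay on either side of it with S34F replicate 3 above. The log2 fold change was 0.16 (standard error 0.14, 95% interval -0.19 to 0.50, unadjusted p = 0.320 from limma; exact permutation p = 0.5). The ratio by replicate number was 0.958, 1.08 and 1.37. Without replicate 3 in both groups the log2 fold change was 0.021 (unadjusted p = 0.753 from limma).

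CDKN1C (ENSG00000129757, chromosome 11 from 2883213 to 2885773, minus strand) encodes p57Kip2 and lies in an imprinted cluster. Its values were 4.80, 3.59 and 4.49 FPKM in S34F and 4.09, 4.78 and 5.03 FPKM in WT. The groups overlapped over most of their range. S34F minus WT was -0.09 on the log2 scale (95% interval -0.41 to 0.22, unadjusted p = 0.506 from limma; exact permutation p = 0.6). Together the 3 Cip/Kip genes summed to 47.3 FPKM in S34F replicate 3 and to 24.1 to 30.0 FPKM in the other libraries. CDKN1A made up 59.3% of that sum in S34F replicate 3 and 34.6% in WT replicate 3, against 45.9% to 49.8% in the first and second replicates.

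Among the INK4 genes, CDKN2C (ENSG00000123080, chromosome 1 from 50960745 to 50974633, plus strand), which encodes p18, had 25.1, 22.7 and 18.9 FPKM in S34F and 22.5, 22.0 and 19.6 FPKM in WT. In both groups replicate 3 was the lowest. S34F differed from WT by a log2 fold change of 0.05 (95% interval -0.26 to 0.37, unadjusted p = 0.716 from limma; exact permutation p = 0.7). CDKN2D (ENSG00000129355, chromosome 19 from 10566462 to 10569059, minus strand), which encodes p19, had 3.08, 2.77 and 4.17 FPKM in S34F and 3.49, 3.34 and 3.65 FPKM in WT. Here replicate 3 was the highest of each group, the reverse of CDKN2C. The log2 fold change of CDKN2D was -0.06 (95% interval -0.40 to 0.27, unadjusted p = 0.671 from limma; exact permutation p = 0.8). It was -0.20 without S34F replicate 3 (unadjusted p = 0.0706, limma) and -0.17 without both replicates 3 (unadjusted p = 0.0832, limma). The INK4 sum stayed between 23.1 and 28.2 FPKM in the 6 libraries. CDK4 and CDK6, the kinases that INK4 proteins bind, summed to 3.41 to 4.09 times that level, nearly all of it CDK4, with CDK4 at 80.8 to 102.4 FPKM and CDK6 at 0.913 to 1.72 FPKM.

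CDKN3 (ENSG00000100526, chromosome 14 from 54396849 to 54420218, plus strand), the phosphatase, had 5.96, 5.94 and 4.99 FPKM in S34F and 6.54, 5.19 and 6.04 FPKM in WT. The lowest library was S34F replicate 3, and the WT replicates spanned most of the range. Between the groups the log2 fold change was -0.06 (95% interval -0.35 to 0.23, unadjusted p = 0.635 from limma; exact permutation p = 0.5). For CDKN1C, CDKN2C, CDKN2D and CDKN3 the 95% intervals lay between 0.754-fold and 1.29-fold on the log2(FPKM + 1) scale. A 1.5-fold change on that scale lay outside them. The interval of CDKN1B also ended below 1.5-fold, at 1.41-fold, while that of CDKN1A ran from 0.939-fold to 2.51-fold. This scale understates fold changes of low genes, and the intervals measure only the spread between these libraries.

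**Figure D2:**
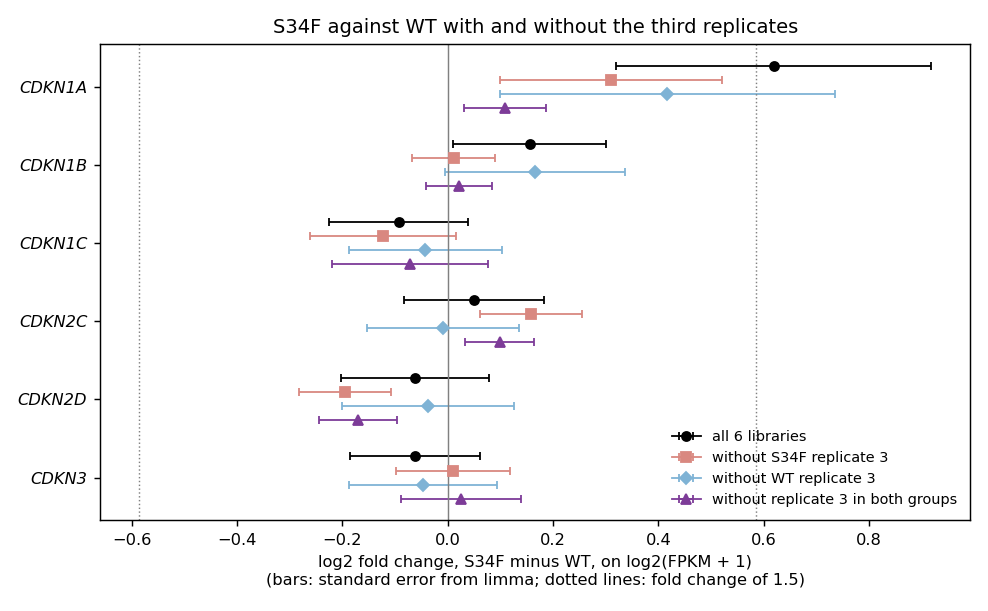
Log2 fold change of 6 CDK inhibitor genes (S34F minus WT, on log2(FPKM + 1)) from limma with all libraries and without 1 or both of the replicates 3. Bars are standard errors, and dotted lines mark a fold change of 1.5. CDKN1A stood at 0.62 with all libraries and at 0.11 without both replicates 3, while the other 5 genes stayed under 1.5-fold in each fit drawn.

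In the libraries numbered 3 the genes deviated in different directions. In S34F replicate 3, CDKN1A, CDKN1B and CDKN2D were at their highest of the 6 libraries and CDKN2C and CDKN3 at their lowest. Such extremes were common in this library. Of all genes tested, 43.9% had their highest S34F value there and 43.5% their lowest, against 3 and 2 of the 6 inhibitors. For WT replicate 3 within WT the shares were 33.1% and 50.2%, against 3 and 2 of the 6. Relative to the mean of S34F replicates 1 and 2, its level was 1.96 times for CDKN1A, 1.38 times for CDKN1B and 1.43 times for CDKN2D, and 0.791 times for CDKN2C and 0.839 times for CDKN3. In WT replicate 3 the ratios to WT replicates 1 and 2 were nearer to 1 for CDKN1B, at 1.02, and for CDKN2D, at 1.07, and CDKN1A lay at 0.631. CDKN1A was thus high in one library numbered 3 and low in the other, and CDKN3, at 1.03 in WT, also differed in direction, by less. CDKN1C lay between its group's other libraries in S34F and was the highest in WT, at 1.13 times.

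**Figure D3:**
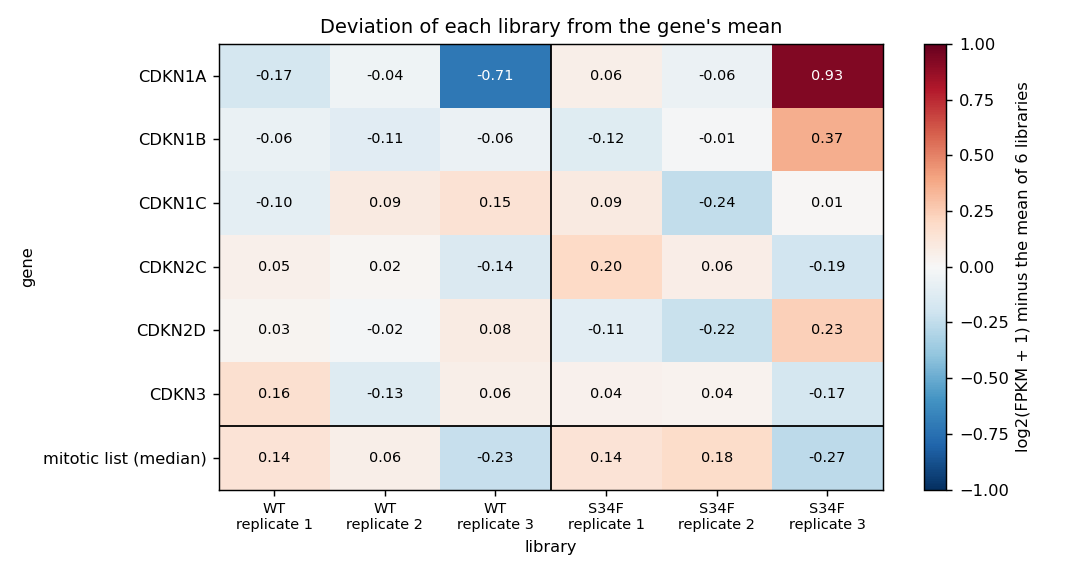
Deviation of log2(FPKM + 1) in each library from the mean of the 6 libraries, for 6 CDK inhibitor genes and, in the last row, the median of 22 mitotic genes. Red is above and blue below the gene's mean. CDKN1A deviated by 0.93 in S34F replicate 3 and by -0.71 in WT replicate 3, while the mitotic genes were low in both.

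The listed CDK, cyclin and mitotic genes were mostly low in both libraries numbered 3. Of 16 listed CDKs and cyclins, 14 were tested and 0 were called in S34F against WT. MNAT1, which helps to activate CDKs, had the smallest unadjusted p, 0.308 from limma (log2 fold change 0.16). Replicate 3 was the lowest of its group for 12 of the 14 in S34F and for 13 of the 14 in WT, which was so for 43.5% and 50.2% of all genes tested. Of 24 listed mitotic genes, 22 were tested and 0 called, and replicate 3 was the lowest for 19 in S34F and for 18 in WT. Among them AURKA, a kinase of the spindle poles, had the smallest unadjusted p, 0.0949 from limma (log2 fold change 0.31). CDK1, the mitotic kinase, had 13.2 FPKM in S34F replicate 3 and 13.4 FPKM in WT replicate 3, against 18.5 to 20.9 FPKM in the other libraries. CDK2, which p21Cip1 and p27Kip1 bind, had 12.0, 12.2 and 8.53 FPKM in S34F and 11.1, 12.2 and 10.2 FPKM in WT. Whether the low level of these genes had a part in the values of the inhibitors in these libraries was not tested.

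Ligase parts that mark p21Cip1 and p27Kip1 for destruction, and genes related to these ligases, were described from a list of 14, all tested and 0 called. SKP2, which recognizes p27Kip1, had 8.15, 8.39 and 3.74 FPKM in S34F and 6.02, 6.54 and 4.44 FPKM in WT, with the lowest value of each group in replicate 3 (log2 fold change 0.17, unadjusted p = 0.578 from limma). DTL, which brings p21Cip1 to its ligase on PCNA, had 12.8, 12.2 and 8.23 FPKM in S34F and 13.2, 12.9 and 6.79 FPKM in WT. CKS1B, the partner of SKP2, varied less, from 53.2 to 67.0 FPKM. FZR1 had the smallest unadjusted p of the list, 0.123 from limma, with a log2 fold change of 0.19. RNA levels do not measure the inhibitor proteins, which these ligases control. Of 18 RB, E2F and related genes, 17 were tested and 0 called, with the smallest unadjusted p for LIN54, of the complex that binds CHR elements, at 0.0943 from limma (log2 fold change 0.23).

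Of 27 listed regulators of CDK inhibitor genes, 24 were tested and 1 was called, against 0.585% of all genes tested. The gene called was MYC, which was lower in S34F (log2 fold change -2.05, unadjusted p = 0.0440 and adjusted p = 1.00 from limma). MYC, a repressor of CDKN1A, had 28.3, 1.24 and 10.01 FPKM in the WT replicates and 1.19, 1.23 and 1.10 FPKM in the S34F replicates. WT replicates 1 and 2 thus stood far apart in MYC, and WT replicate 2 was level with the S34F libraries. FOXO3 had 4.68, 4.27 and 8.10 FPKM in S34F and 2.85, 2.77 and 4.80 FPKM in WT (log2 fold change 0.56, unadjusted p = 0.0676 from limma, exact permutation p = 0.3). Its groups overlapped, since WT replicate 3 lay above S34F replicates 1 and 2. The study's own analysis, at the same limits, reported FOXO3a as upregulated and c-Myc as downregulated. By replicate number the ratio of S34F to WT was 1.64, 1.54 and 1.69 for FOXO3, higher in 3 of 3 pairs, where CDKN1A had 1.19, 0.988 and 3.37 and CDKN1B 0.958, 1.08 and 1.37. Whether FOXO3 or MYC had a part in the levels of CDKN1A or CDKN1B was not tested.

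CDKN2B (ENSG00000147883, chromosome 9 from 22002903 to 22009363, minus strand), which encodes p15, was listed at 0 in 5 of 6 libraries and at 0.0101 FPKM in S34F replicate 3. That value corresponds to about 0.974 fragments on its transcript of 3911 bases, and a limit of 3 fragments would have stood at 0.0294 to 0.0369 FPKM, counting error only. It was left out of the test, and no fold change is given. Its neighbours on chromosome 9 were low as well. MTAP, an enzyme of methionine salvage used by most cells, averaged 0.0022 FPKM, and KLHL9 averaged 0.0049 FPKM. These were the 2 protein-coding genes listed within 1 Mb of CDKN2B, and both averaged under 0.05 FPKM, against 22.4% of the 16800 protein-coding genes listed. Farther out, FOCAD averaged 0.163 FPKM, MLLT3 0.219 FPKM and ACER2 0.715 FPKM. The nearest listed protein-coding genes with a mean of at least 1 FPKM were RPS6, at 470.9 FPKM, on one side and CAAP1, at 2.47 FPKM, on the other. Of 17 neighbours chosen for CDKN2B, some of them absent from the table of genes, 2 were tested and 0 called. PLAA had the smallest unadjusted p, 0.519 from limma (log2 fold change 0.08). Each of the other 6 CDK inhibitor genes had between 4 and 52 genes with a mean of at least 1 FPKM within 1 Mb, or 26.7% to 80.0% of those listed there, and CDKN2B had 0 of 2. Genes of this stretch that the table does not list were not analysed here, and FPKM cannot tell a silent gene from one absent from the genome.

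**Figure D4:**
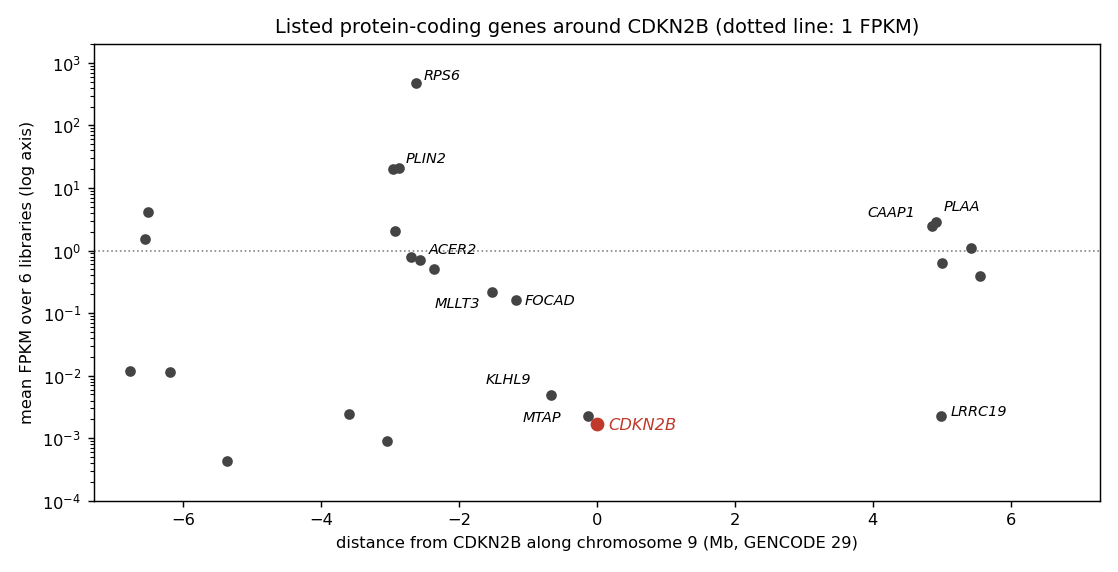
Mean FPKM over 6 libraries (log axis) of the protein-coding genes listed within 7 Mb of CDKN2B, by distance in Mb along chromosome 9, with CDKN2B in red and a dotted line at 1 FPKM. Between RPS6 and CAAP1 every listed gene was under 1 FPKM, with MTAP at 0.0022 and KLHL9 at 0.0049 FPKM nearest to CDKN2B.

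The genes most like each inhibitor in their course over the 6 libraries were ranked by Pearson correlation of log2(FPKM + 1), as a description, since the libraries share their replicate structure. For CDKN1A they were FBXO11 (r = 1.00), SLC25A33 (r = 0.996) and SNX9 (r = 0.996), and 79 genes exceeded r = 0.95. For CDKN1B they were VPS4B, RNF141 and SMG1P5 (r = 0.991 to 0.996), with 201 genes above 0.95. For CDKN2C they were SLC25A10, GPR3 and GRAP2 (r = 0.991 to 0.993), and for CDKN2D CCDC142, PCSK6-AS1 and GNPTG (r = 0.992 to 0.999), with 212 and 129 genes above 0.95. CDKN1C and CDKN3 followed few genes so closely, 4 and 7 above 0.95, led by CD44 (r = 0.987) and CD24 (r = 0.991). Among the inhibitors themselves r was 0.80 for CDKN1A with CDKN1B and 0.67 for CDKN1B with CDKN2D. It was -0.80 for CDKN2C with CDKN2D, -0.69 for CDKN1B with CDKN2C and -0.68 for CDKN1A with CDKN3, and the other 10 of the 15 pairs lay between -0.60 and 0.48, over 6 libraries each.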

How the data were processed

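Per the file headers, the 1 table the authors deposited is in FPKM, gene by library. It is named as raw counts, yet 100% of the nonzero values have decimals. The submitters' processing notes name StringTie and edgeR without a role, and the aligner, genome build and annotation are not given in the sources used here. The table also holds the authors' fold changes, p-values and q-values, which were not used.

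Genes averaging 1 FPKM or more were kept (10942 of 31142), and S34F was compared with WT by limma 3.58.1 (R 4.3.3) on log2(FPKM + 1) with a mean-variance trend, no block, and Benjamini-Hochberg adjustment. Fold changes on this scale understate those of low genes. A symbol with several identifiers was taken at the higher mean. Depth was read from the value of 1 fragment in single-exon genes and is approximate. Coordinates came from GENCODE 29 on GRCh38. The fit was tested on simulated data. The genes, lists and tests were chosen with earlier results of these data known, and the genes named beside the 7 inhibitors are those called in a list or with its smallest p, those a member's text needs, and the 3 most similar to each member. CDK1 was named after its values were seen. Some listed genes are not reported here.

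Deviations from the group mean correlated at 0.212, 0.174 and 0.380 for libraries with the same replicate number, all above 0.1. On that ground a fit with the number as a block was run as an alternative. Replicates 1 and 2 also correlated across numbers, at 0.197 and 0.134, so these values cannot tell which of them pair. Ratios by replicate number therefore follow the labels only. Other alternatives changed the scaling, pseudocount, filter, trend, thresholds and libraries.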

Additional observations from a re-analysis of the deposited data

How the results depend on the processing

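Of the 6 CDK inhibitor genes tested, 0 were called with another scaling, pseudocount, variance model or fold threshold, with a mean FPKM of at least 0.1, or with the replicate number as a block. With a mean FPKM of at least 5, 4 were tested and 0 called, and with no filter 7 were tested and 0 called. Without 1 library, or without both replicates 3, the count ran from 0 to 1, the call being CDKN1A without S34F replicate 2. That gene's log2 fold change ran from 0.11 without both replicates 3, and 0.31 without S34F replicate 3 alone, to 0.80 without S34F replicate 2, and its unadjusted p from limma under the replicate block was 0.130. CDKN1B stayed above 0, from 0.011 to 0.25. With libraries left out, the sign turned for CDKN1C (-0.16 to 0.0062), CDKN2C (-0.038 to 0.16), CDKN2D (-0.20 to 0.033) and CDKN3 (-0.14 to 0.010, and 0.025 without both replicates 3). Over all genes, 64 were called, and 122 with a pseudocount of 0.1, 22 with a mean FPKM of at least 5, 247 at a fold above 1.2, 15 at a fold above 2, 87 with the replicate block, and 66 to 183 with libraries left out, the higher counts being 180 without S34F replicate 3 and 183 without both replicates 3. By limma, an adjusted p under 0.05 was reached by 8 genes without both replicates 3. It was reached by 3 without WT replicate 3, by 1 without S34F replicate 1 and by 0 in the other settings. The genes that passed included 0 of the inhibitors tested. The block changed no call among the inhibitors. The order of their levels without both replicates 3 was computed after seeing the data.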

Other observations

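Of 13 symbols chosen around CDKN1C on chromosome 11, among them both CARS and CARS1 for the same gene, 6 were tested and 0 called. SLC22A18, a transporter, had the smallest unadjusted p, 0.271 from limma (log2 fold change -0.15). PHLDA2, which is imprinted with CDKN1C, had 20.6, 21.3 and 11.1 FPKM in S34F and 14.3, 12.8 and 14.4 FPKM in WT, so that S34F replicate 3 was its lowest library.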
